A study of Homo sapiens with 5 samples.

Results

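Genes of cholesterol and fatty acid synthesis were followed in 5 libraries made from A549, a human lung adenocarcinoma line in wide use. The set was defined by gene symbol and held 35 genes of the 58929 listed in the files. It comprised 5 regulators of the SREBP transcription factors, 3 sterol transport genes, 7 genes of the mevalonate pathway, 11 later sterol enzymes and 9 genes of fatty acid synthesis, desaturation and elongation. All 35 were found, and each had at least 14 counts in every library.

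Mammalian cells build cholesterol from acetyl-CoA through mevalonate, farnesyl diphosphate, squalene and lanosterol, and build fatty acids from the same acetyl-CoA through malonyl-CoA. Both routes are controlled by the SREBP transcription factors, which are made as membrane proteins of the endoplasmic reticulum. When sterols are scarce the escort protein SCAP carries them to the Golgi for cleavage, and when sterols are plentiful the INSIG proteins hold them back. SREBF1 is best known for the genes of fatty acid synthesis, and SREBF2 for those of cholesterol synthesis and uptake.

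The libraries carried changed levels of RBMS1, an RNA-binding protein. The knockdown libraries came from lines labelled sh1088 and sh1196, each stably depleted of RBMS1, and their reference was a line labelled as the knockdown control, here the sh control. The overexpression library, labelled R1A, came from a line with stable expression of RBMS1, and its reference was a pCDH control line. All 5 lines were kept in F12K medium with 10% serum, a source of sterols and lipids, and were treated with cycloheximide at 100 µg/mL for 15 min before lysis. Each line gave 1 library, so that sh1088 and sh1196 are different lines used as replicates of a knockdown, and nothing in the labels says that separate cultures were taken. The p-values below therefore reflect no more than the scatter among these libraries, and part or all of that scatter may be technical. The design text calls the libraries ribosome footprints while the molecule label reads total RNA. No paired RNA libraries were analysed here, so a change in mRNA and a change in ribosome occupancy cannot be told apart.

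Expected counts summed to between 10327747 and 13980843 a library. Nuclear protein-coding genes took 42.2% of them in sh1088, 66.0% in sh1196, 37.7% in the sh control, 62.3% in the overexpression library and 66.3% in the pCDH control. RBMS1 itself had 18.3 CPM (counts scaled to a common library size by TMM) in sh1088 and 13.4 in sh1196, against 31.0 in the sh control, and 37.0 in the overexpression library against 24.7 in the pCDH control. Both knockdown libraries thus lay below both controls and the overexpression library above them. The knockdown change did not pass the test (log2 change -0.93, SE 0.45, edgeR adjusted p = 0.828), and the overexpression ratio was 0.58 on the log2 scale (95% counting interval 0.39 to 0.78). All 10 A549 markers examined were detected, with summed levels of 7304 to 14837 CPM. DCN, PTPRC, CD3E, VWF and KDR, which mark fibroblasts, immune cells and endothelium, were at 0 in every library. Of the 5 immune markers 1 reached 87.9 CPM and of the 5 fibroblast markers 1 reached 9.59 CPM, both in the pCDH control. The 4 hepatocyte genes together reached at most 1.77 CPM.

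The upstream sequences of 5 genes are shown because each of these genes lay at least 2-fold apart between libraries in the results below. SREBF2, INSIG1 and MVD were highest in the pCDH control, and INSIG2 and MSMO1 were lowest there. Each is the stretch of 250 bases before the RefSeq start in GRCh38.p14, written 5′ to 3′ on the strand of the gene. They lie at chr22:41832855-41833104 on the plus strand for SREBF2, chr7:155297628-155297877 on the plus strand for INSIG1, chr16:88663092-88663341 on the minus strand for MVD, chr2:118088221-118088470 on the plus strand for INSIG2 and chr4:165327419-165327668 on the plus strand for MSMO1. Capitals mark TCACCCC, the inner letters of the sterol regulatory element to which SREBPs bind, and CCAAT or its reverse complement ATTGG, the core of the site of the factor NF-Y.
SREBF2: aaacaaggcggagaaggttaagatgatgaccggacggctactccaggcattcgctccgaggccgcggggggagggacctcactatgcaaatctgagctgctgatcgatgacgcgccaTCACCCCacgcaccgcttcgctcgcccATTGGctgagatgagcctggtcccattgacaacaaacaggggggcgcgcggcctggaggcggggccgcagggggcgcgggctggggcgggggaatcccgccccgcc
INSIG1: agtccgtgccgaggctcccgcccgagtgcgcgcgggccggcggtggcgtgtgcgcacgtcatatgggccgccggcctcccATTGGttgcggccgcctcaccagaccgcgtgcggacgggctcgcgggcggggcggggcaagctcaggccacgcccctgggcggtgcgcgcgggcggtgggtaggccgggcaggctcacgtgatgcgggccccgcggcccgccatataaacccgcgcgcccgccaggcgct
MVD: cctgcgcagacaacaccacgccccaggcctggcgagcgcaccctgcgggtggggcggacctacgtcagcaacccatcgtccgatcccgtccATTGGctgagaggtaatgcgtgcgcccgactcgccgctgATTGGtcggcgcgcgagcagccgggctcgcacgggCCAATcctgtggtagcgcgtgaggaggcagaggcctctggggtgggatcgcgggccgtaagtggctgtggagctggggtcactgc
INSIG2: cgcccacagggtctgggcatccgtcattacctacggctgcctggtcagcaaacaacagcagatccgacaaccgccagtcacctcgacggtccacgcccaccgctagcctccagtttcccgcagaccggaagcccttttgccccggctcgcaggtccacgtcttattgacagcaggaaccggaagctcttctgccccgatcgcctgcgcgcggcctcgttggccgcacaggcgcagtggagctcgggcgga
MSMO1: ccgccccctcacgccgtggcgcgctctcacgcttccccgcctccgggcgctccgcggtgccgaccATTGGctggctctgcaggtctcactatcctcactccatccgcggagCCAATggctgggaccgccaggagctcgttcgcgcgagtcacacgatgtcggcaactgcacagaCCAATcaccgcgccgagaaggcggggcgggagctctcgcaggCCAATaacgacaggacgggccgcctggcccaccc

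Among 27305 genes with a RefSeq promoter (250 bases before to 50 after a start), TCACCCC was found on either strand in 1795, or 6.57%. Of the 31 lipid genes with a promoter in the table it was found in 3 (9.68%), SREBF2, MVK and INSIG2, for INSIG2 at a further start that is not shown. In SREBF2 it began at position -133 from the start. SREBF2 also carried ATTGG, at position -106. CCAAT was found on either strand in 23 of these 31 genes (74.2%), against 39.7% of all genes. Of the sequences shown, INSIG1 held it once, MVD at 3 positions, MSMO1 at 4 and INSIG2 at none. GGGCGG, the core letters of the Sp1 site, was found in 29 of the 31 (93.5%), against 48.3% of all genes. These are matches of letters and not measured binding. The 27305 genes were not limited to genes expressed here, and a gene counted when any of its starts held the letters. Whether the shares of the lipid genes differ from those of expressed genes was not tested. No promoter is given for SQLE, FDFT1, ACAT2 and FASN.

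Per transcript length, by TPM, the highest member was a carrier of cholesterol and not an enzyme of its synthesis. NPC2, a soluble lysosomal protein that binds cholesterol, was first among the 35 genes in all 5 libraries, with 156 TPM in sh1088, 375 in sh1196, 64.5 in the sh control, 265 in the overexpression library and 544 in the pCDH control. ACLY, which makes cytosolic acetyl-CoA from citrate, was next by median, with 43.8 TPM in sh1088, 196 in sh1196, 47.7 in the sh control, 195 in the overexpression library and 276 in the pCDH control. SREBF1 followed with 53.4 TPM in sh1088, 173 in sh1196, 52.1 in the sh control, 220 in the overexpression library and 394 in the pCDH control. The order below NPC2 was not fixed, since ACLY stood between place 2 and place 7 and SREBF1 between 2 and 4 in single libraries. Fatty acid genes filled the next places by median TPM (FADS1, FADS2, ELOVL5 and SCD), whereas LSS and MVD, both with a median of 3.14 TPM, were lowest. TPM serves here to order genes within a library, and as an alternative scale where it is named. It divides by transcript length, and the order per length of coding sequence was not examined. By counts SCD stood above NPC2 in every library. SCD had 985 CPM against 146 CPM for NPC2 in the sh control, and 1321 CPM against 254 CPM in the pCDH control.

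By share of nuclear protein-coding counts, the 35 genes together took 0.527% in sh1088 and 0.721% in sh1196, against 0.583% in the sh control, and 0.855% in the overexpression library against 1.07% in the pCDH control. The knockdown values lay on both sides of the sh control and both below the pCDH control. SCD, the stearoyl-CoA desaturase, was by counts the largest member, and without it the shares were 0.400% in sh1088 and 0.588% in sh1196 against 0.403% in the sh control, and 0.632% in the overexpression library against 0.825% in the pCDH control. In bulk libraries fewer cells of a kind and less RNA per cell cannot be told apart.

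**Figure D1:**
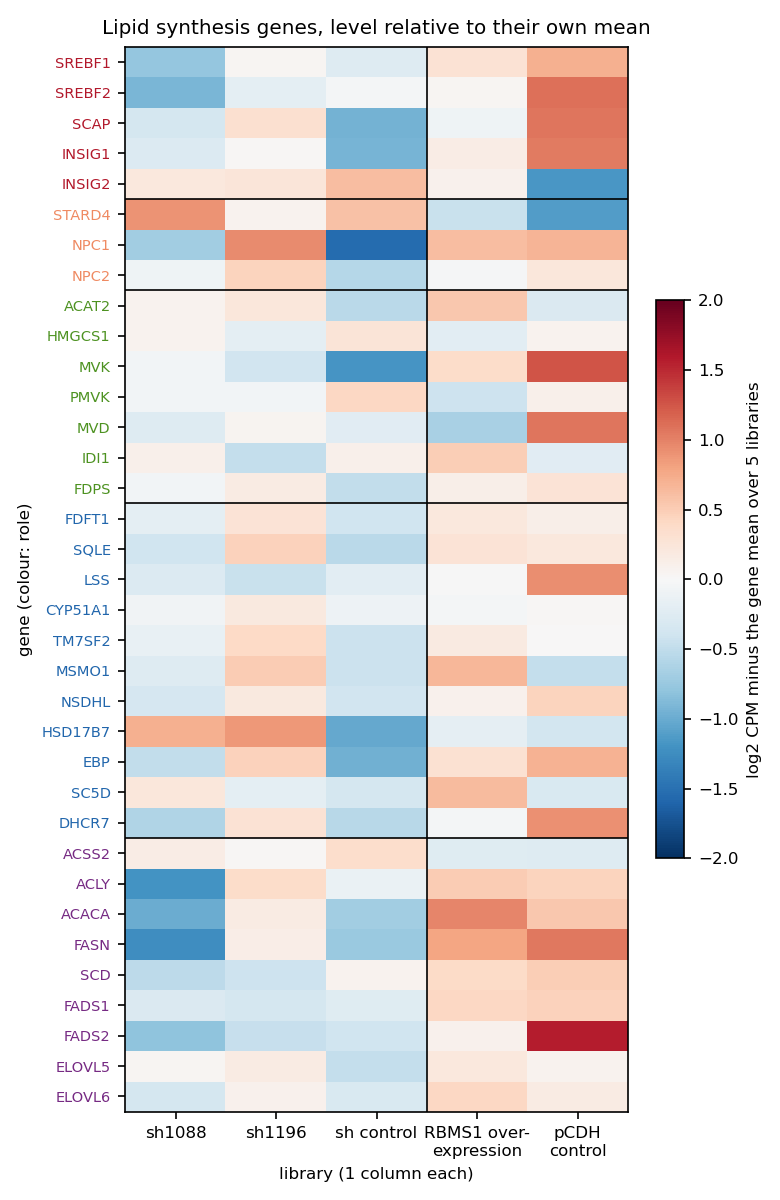
Level of each of the 35 genes in each library, as log2 CPM (TMM-scaled) minus the mean of that gene over the 5 libraries. Columns are single libraries and rows are genes, coloured by role. The pCDH control holds the highest level of 15 genes and the sh control the lowest level of 16.

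Knockdown of RBMS1 moved no gene of lipid synthesis past the test. Of the 35 genes, 0 had an edgeR adjusted p under 0.05, as had 0 of all 14913 genes tested (0%). With an unadjusted p under 0.05 there were 2, NPC1 and HSD17B7 (5.71%), against 5.87% of all genes. The log2 change lay above 0 for 22 of 35 (62.9%), against 54.1% of all genes, with a median of 0.38 against 0.07 for all genes. Genes at least 2-fold higher numbered 4, which were NPC1, HSD17B7, EBP and SCAP (11.4%, against 12.5% of all genes), and MVK lay just under that limit at a log2 change of 1.00. Without sh1196, HSD17B7 stood at 1.74 and MVK at 1.12, while NPC1 stood at 0.85, SCAP at 0.59 and EBP at 0.47, under that limit. SCAP, at 1.00 in the fit over both lines, stood at 0.97 by RLE size factors or DESeq2. None was at least 2-fold lower, against 8.5% of all genes. Scaling by library size alone or by TPM put the median of all genes at 0.62 and 0.78 and all 35 lipid genes above 0, and directions below are relative to the TMM scale, which keeps that median near 0. DESeq2 called 14 genes and limma-voom 0, with no lipid gene among them. With 2 libraries against 1, an exact permutation test of a single gene cannot go below p = 0.333.

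The 5 regulators did not move one way. SREBF1, which encodes the SREBP of fatty acid synthesis (chromosome 17, 17810399 to 17837002, minus strand, GENCODE 29 on GRCh38), had 124 CPM in sh1088 and 217 CPM in sh1196, against 177 CPM in the sh control, and 259 CPM in the overexpression library against 347 CPM in the pCDH control. The hairpin lines lay on either side of the sh control, and the fitted log2 change was -0.02 (SE 0.55, edgeR adjusted p = 0.995). The microRNA gene MIR33B lies within SREBF1 on the same strand, and MIR33A within SREBF2.

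SREBF2, which encodes the SREBP of cholesterol synthesis (chromosome 22, 41833079 to 41907308, plus strand), had 20.4 CPM in sh1088 and 33.7 CPM in sh1196, against 37.4 CPM in the sh control, and 39.7 CPM in the overexpression library against 82.7 CPM in the pCDH control. Both knockdown libraries lay below all 3 others. Its log2 change against the sh control was -0.43 (SE 0.48, edgeR adjusted p = 0.883). SCAP, the escort protein of the SREBPs (chromosome 3, 47413694 to 47477126, minus strand), had 22.5 CPM in sh1088 and 36.1 CPM in sh1196, against 15.0 CPM in the sh control, and 27.1 CPM in the overexpression library against 60.3 CPM in the pCDH control. Both hairpin lines were above the sh control and below the pCDH control, and the log2 change against the sh control was 1.00 (SE 0.51, edgeR adjusted p = 0.828).

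The INSIG genes, whose proteins retain SCAP in the endoplasmic reticulum, lay at opposite ends in the controls. INSIG1 (chromosome 7, 155297776 to 155310235, plus strand) had 15.1 CPM in sh1088 and 18.6 CPM in sh1196, against 9.60 CPM in the sh control, and 20.4 CPM in the overexpression library against 37.6 CPM in the pCDH control. INSIG2 (chromosome 2, 118088452 to 118110997, plus strand) had 29.5 CPM in sh1088 and 30.1 CPM in sh1196, against 38.9 CPM in the sh control, and 27.0 CPM in the overexpression library against 11.4 CPM in the pCDH control. INSIG1 was thus lowest in the sh control and highest in the pCDH control, and INSIG2 the reverse. In the knockdown their log2 changes were 0.85 (SE 0.50) for INSIG1 and -0.35 (SE 0.43) for INSIG2, with edgeR adjusted p = 0.828 and 0.896.

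**Figure D2:**
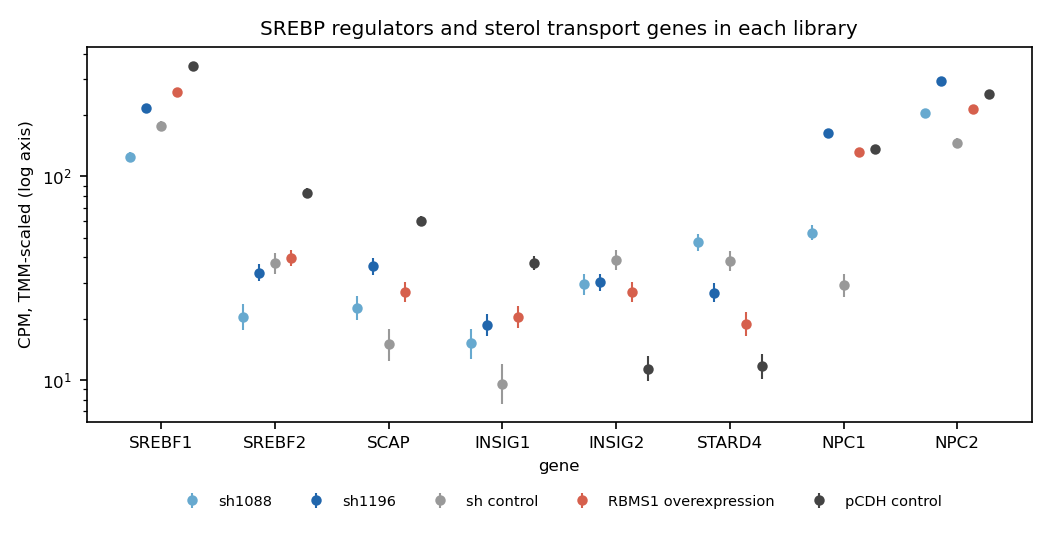
Level of the 5 SREBP regulators and the 3 sterol transport genes in each library, as CPM (TMM-scaled, log axis), with bars for the exact 95% Poisson counting interval. SREBF2, SCAP and INSIG1 were highest and INSIG2 and STARD4 lowest in the pCDH control on this scale.

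Among the transport genes NPC1, the lysosomal membrane protein that exports cholesterol, had the largest fitted log2 change of the set in the knockdown on the TMM scale. In sh1088 alone HSD17B7 and MVK stood above it. On log2(TPM + 1) EBP did, at 2.16 against 1.93, and SC5D did by a small margin. NPC1 had 52.9 CPM in sh1088 and 164 CPM in sh1196, against 29.3 CPM in the sh control, and 131 CPM in the overexpression library against 137 CPM in the pCDH control. Both hairpin lines were above the sh control, while only sh1196 was above the pCDH control. The log2 change against the sh control was 1.92 (SE 0.77, edgeR adjusted p = 0.828), with 0.85 for sh1088 and 2.48 for sh1196 taken singly. NPC2 had 204 CPM in sh1088 and 293 CPM in sh1196, against 146 CPM in the sh control, and 214 CPM in the overexpression library against 254 CPM in the pCDH control. Its log2 change was 0.80 (SE 0.55, edgeR adjusted p = 0.831). STARD4, a cytosolic sterol carrier, had 47.4 CPM in sh1088 and 26.9 CPM in sh1196, against 38.3 CPM in the sh control, and 18.8 CPM in the overexpression library against 11.7 CPM in the pCDH control. The hairpin lines lay on either side of the sh control for STARD4, with a log2 change of -0.01.

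In the mevalonate pathway 4 of 7 genes lay above 0 in the knockdown (against 54.1% of all genes) and 3 below. Their median log2 change was 0.17, against 0.07 for all genes. MVK, mevalonate kinase, had 5.41 CPM in sh1088 and 4.35 CPM in sh1196, against 2.49 CPM in the sh control, and 7.25 CPM in the overexpression library against 13.6 CPM in the pCDH control. MVD, mevalonate diphosphate decarboxylase, had 8.22 CPM in sh1088 and 10.2 CPM in sh1196, against 8.35 CPM in the sh control, and 6.24 CPM in the overexpression library against 20.7 CPM in the pCDH control. For both genes the pCDH control stood above the other 4 libraries. The other 5 were ACAT2, which joins acetyl-CoA units, HMGCS1, the HMG-CoA synthase, PMVK, phosphomevalonate kinase, IDI1, the isomerase of isopentenyl diphosphate, and FDPS, farnesyl diphosphate synthase. Their log2 changes in the knockdown ran from -0.42 for PMVK to 0.73 for ACAT2.

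Of the 11 sterol enzymes 10 lay above 0 in the knockdown (against 54.1% of all genes), though 0 passed the test. The median log2 change was 0.51, with 0.16 in sh1088 taken alone and 0.83 in sh1196. Set against the pCDH control instead, 5 of the 11 lay above 0 (8049 of 15508 genes did), with a median of -0.04. Libraries without knockdown lay above the sh control too. At a mean of at least 5 CPM, 9 of 10 did in the pCDH control (median 0.63, 5205 of 10596 genes). In overexpression 10 of 10 did (median 0.61, 5472 of 10398 genes). EBP, the sterol isomerase, had 60.1 CPM in sh1088 and 117 CPM in sh1196, against 43.4 CPM in the sh control, and 105 CPM in the overexpression library against 137 CPM in the pCDH control. Its log2 change was 1.06 (SE 0.57, edgeR adjusted p = 0.828). EBP had the largest uncertainty of read assignment in the set, a posterior SD of up to 10.1 counts, and 3 more genes (NPC2, CYP51A1 and FADS2) exceeded 0.1 counts.

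HSD17B7, a ketoreductase of the demethylation steps, had 5.83 CPM in sh1088 and 6.44 CPM in sh1196, against 1.75 CPM in the sh control, and 3.12 CPM in the overexpression library against 2.76 CPM in the pCDH control. Both knockdown libraries lay above the other 3, at a log2 change of 1.84 (SE 0.73, edgeR adjusted p = 0.828). It is the only member with a mean level under 5 CPM, is not among the genes chosen by the naming rule and was picked out after its values were seen. DHCR7, the reductase of the last step to cholesterol, had 59.9 CPM in sh1088 and 112 CPM in sh1196, against 61.9 CPM in the sh control, and 88.7 CPM in the overexpression library against 172 CPM in the pCDH control. The hairpin lines stood on either side of the sh control for DHCR7.

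MSMO1, the methyl sterol oxidase, had 33.9 CPM in sh1088 and 57.8 CPM in sh1196, against 30.3 CPM in the sh control, and 64.9 CPM in the overexpression library against 29.2 CPM in the pCDH control. The log2 ratio of the pCDH control over the sh control was -0.05, and the 3 lines with altered RBMS1 all lay above both controls. ACAT2, HSD17B7 and SC5D held the same order. The share of all genes with it was not counted, so it is not read as a result about these genes. Over the pCDH control, HSD17B7 stood at 0.18 in overexpression (95% counting interval -0.48 to 0.83) and SC5D at 0.11 in sh1196 (-0.19 to 0.41). ACAT2 in sh1088 stood at 0.36 (0.11 to 0.60) over that control. For sh1088 over the sh control the MSMO1 log2 ratio was 0.16 (95% counting interval -0.08 to 0.41). LSS, lanosterol synthase, had 8.22 CPM in sh1088 and 7.30 CPM in sh1196, against 8.60 CPM in the sh control, and 9.86 CPM in the overexpression library against 18.9 CPM in the pCDH control. It was the only sterol enzyme whose fitted knockdown change was below 0 (-0.12, SE 0.54). The remaining 6 were FDFT1, the squalene synthase, SQLE, the squalene epoxidase, CYP51A1, the lanosterol demethylase, NSDHL, a dehydrogenase of the demethylation steps, TM7SF2, a sterol reductase, and SC5D, a sterol desaturase. Their log2 changes ran from 0.19 for CYP51A1 to 0.66 for SQLE.

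Of the 9 fatty acid genes, ACLY, ACACA, FASN and ELOVL6 lay below the sh control in sh1088 and above it in sh1196, while ELOVL5, a fatty acid elongase, was above it in both and the other 4 were below it in both. Above 0 were thus 1 of 9 in sh1088 (against 47.9% of all genes) and 5 of 9 in sh1196 (against 51%), and the fitted median was -0.05. ACLY had 162 CPM in sh1088 and 477 CPM in sh1196, against 339 CPM in the sh control, and 529 CPM in the overexpression library against 504 CPM in the pCDH control. ACACA, the acetyl-CoA carboxylase that makes malonyl-CoA, had 36.0 CPM in sh1088 and 79.9 CPM in sh1196, against 44.1 CPM in the sh control, and 141 CPM in the overexpression library against 104 CPM in the pCDH control. FASN, the fatty acid synthase, had 51.6 CPM in sh1088 and 134 CPM in sh1196, against 72.9 CPM in the sh control, and 212 CPM in the overexpression library against 255 CPM in the pCDH control. For these 3 enzymes of the synthesis core, sh1088 was the lowest library of all 5 and sh1196 lay above the sh control. ELOVL6, SREBF1 and DHCR7 held the same order. In all, sh1088 was the lowest library for 9 of the 35 genes (25.7%, against 15.2% of all genes).

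The desaturases did not follow that pattern, and SCD and FADS1 were picked out after their values were seen. SCD had 657 CPM in sh1088 and 703 CPM in sh1196, against 985 CPM in the sh control, and 1228 CPM in the overexpression library against 1321 CPM in the pCDH control. FADS1, which puts a double bond into long polyunsaturated acids, had 242 CPM in sh1088 and 232 CPM in sh1196, against 251 CPM in the sh control, and 395 CPM in the overexpression library against 405 CPM in the pCDH control. FADS2, the desaturase of the first step of that route, had 199 CPM in sh1088 and 251 CPM in sh1196, against 263 CPM in the sh control, and 367 CPM in the overexpression library against 1032 CPM in the pCDH control. For all 3 desaturases both knockdown libraries lay below the other 3 on this scale. In the fits by library size or TPM the fitted change over both hairpin lines was above 0 for all 3, as for the rest of the set. None passed the test, and the log2 changes against the sh control were -0.50 for SCD (SE 0.57), -0.05 for FADS1 (SE 0.51) and -0.19 for FADS2 (SE 0.51). FADS2 overlaps FEN1 on the same strand, so reads of the pair may be split unevenly. ACSS2, the acetyl-CoA synthetase, and the elongases ELOVL5 and ELOVL6 completed the group with log2 changes of -0.23, 0.62 and 0.21.

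**Figure D3:**
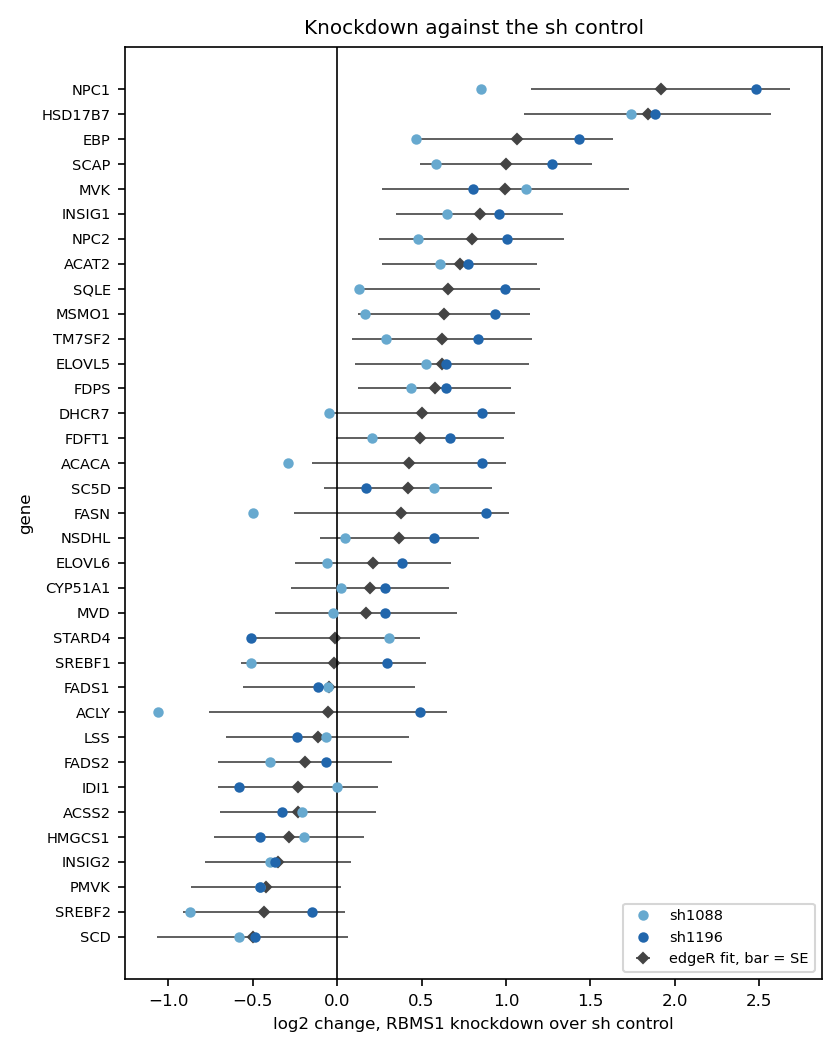
Log2 change of each of the 35 genes in RBMS1 knockdown over the sh control. Diamonds give the edgeR fit over both knockdown libraries with its SE as a bar, and circles give sh1088 and sh1196 singly. NPC1 stood at 1.92 and SCD at -0.50, and no gene passed the test.

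The side on which the knockdown lay depended on the control. Both knockdown libraries were above the sh control for 17 genes (48.6%, against 34.9% of all genes) and below it for 10 (28.6%, against 36%). Against the pCDH control both were above for 7 (20%, against 39.9%) and below for 19 (54.3%, against 36.2%). Against both controls at once, 4 genes were higher, ACAT2, MSMO1, HSD17B7 and SC5D (11.4%, against 14.6%). Lower than both controls were 6, SREBF2, PMVK, LSS, SCD, FADS1 and FADS2 (17.1%, against 13.2%). Both shares are near those of all genes.

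When the knockdown was set against the pCDH control instead, edgeR called 0 of the 35 genes and 93 of 15508 tested (0.6%). At an unadjusted p under 0.05 there were 9 (25.7%, against 16.5% of all genes), and the median log2 change was -0.26 against 0.05. FADS2 stood at -2.18 (SE 0.56, edgeR adjusted p = 0.112) and SREBF2 at -1.60 (SE 0.47, edgeR adjusted p = 0.154). STARD4 stood at 1.68 (SE 0.55, edgeR adjusted p = 0.190) and INSIG2 at 1.40 (SE 0.49, edgeR adjusted p = 0.204). These libraries differ from the pCDH control in the vector as well as in RBMS1, and the parts of these cannot be told apart.

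A fit over all 5 libraries on the level of RBMS1 (-1 in knockdown, 0 in controls, 1 in overexpression), with the vector as a term, called 1 of 15827 genes (0.00632%) and 0 of the 35. The log2 change per level lay above 0 for 12 of 35 (34.3%), against 51.1% of all genes, with a median of -0.22 against 0.02. The difference of these medians was -0.23, and it was -0.35 without sh1088 and -0.071 without sh1196. SCAP alone had an unadjusted p under 0.05 (2.86%, against 6.61% of all genes), at -1.05 per level (SE 0.40, edgeR adjusted p = 0.729). NPC1 stood at -1.06 per level (edgeR adjusted p = 0.763), and these genes were the 2 at least 2-fold lower per level (5.71%, against 10.9% of all genes), with 0 at least 2-fold higher (0%, against 8.81%).

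Overexpression of RBMS1 was compared with the pCDH control as 1 library against 1, so no test was made and a gene is counted when it lay at least 2-fold apart with a mean of at least 5 CPM. Among the 34 lipid genes at that level, 2 were at least 2-fold higher (5.88%, against 14.6% of all genes) and 4 at least 2-fold lower (11.8%, against 13.7%). The higher ones were INSIG2, at a log2 ratio of 1.25 (95% counting interval 0.99 to 1.51), and MSMO1, at 1.15 (0.99 to 1.31). The lower ones were MVD at -1.73 (-2.11 to -1.36), FADS2 at -1.49 (-1.54 to -1.44), SCAP at -1.16 (-1.34 to -0.97) and SREBF2 at -1.06 (-1.21 to -0.91). DHCR7 at -0.96, LSS at -0.94 and SC5D at 0.93 lay just short of 2-fold. The member median was -0.09 against 0.06 for all genes, and 20 of 34 lay below 0 (58.8%, against 47.4% of all genes). The 10 A549 markers summed to 14837 CPM in the overexpression library and 7304 CPM in the pCDH control, while the 5 immune markers summed to 24.7 CPM in the overexpression library and 88.5 CPM in the pCDH control. The part of either in these ratios was not tested. Intervals cover counting error only, since copies of a molecule made by PCR are not independent.

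By role and without a correction for GC content, 4 of the 5 regulators were lower in overexpression, with a median of -0.88, and INSIG2 was the exception. Over all genes 47.4% lay below 0, and each role holds few genes. SREBF1 stood at -0.42 (-0.49 to -0.36) and INSIG1 at -0.88 (-1.10 to -0.67). In the mevalonate pathway 5 of 7 were lower, and ACAT2 at 0.83 and IDI1 at 0.71 were higher. Sterol enzymes divided evenly, 5 above and 5 below 0. In fatty acid synthesis 5 of 9 were above 0, where ACACA stood highest at 0.45 (0.35 to 0.54) and FASN at -0.27 (-0.34 to -0.20). When the overexpression library was set against the sh control instead, it was at least 2-fold higher for 7 of 33 genes (21.2%, against 9.08% of all genes) and lower for 1, STARD4 (3.03%, against 10.6%). With the GC trend taken out that count was 6 (18.2%, against 8.18%) and 1 (3.03%, against 10.9%). Against the sh control and without that correction, SREBF2 stood at 0.09, SCAP at 0.86, FADS2 at 0.48 and INSIG2 at -0.53, each on the other side of 0. MVD stayed below 0 at -0.42, and MSMO1 stood at 1.10.

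The overexpression ratio ran with the GC content of the transcript. Across 9990 nuclear protein-coding genes its Spearman rho with GC content was -0.59, and across the 34 lipid genes it was -0.71 (Pearson r -0.72). All these points come from the same pair of libraries. GC content of the 35 genes ran from 37.3% for INSIG2 to 65.3% for FASN, with a median of 49.7% against 49.8% for all such genes. INSIG2 and MSMO1 (38.6%) are among the lowest, whereas SREBF2 (57.1%), SCAP (60.9%) and MVD (64.1%) are in the upper range. With the GC trend over all genes taken out, the higher count was 1 (2.94%, against 9.77% of all genes) and the lower count 2 (5.88%, against 8.67%). INSIG1 then stood at -1.09 and FADS2 at -1.01, while SREBF2 stood at -0.60, SCAP at -0.42, MVD at -0.78, INSIG2 at 0.46 and MSMO1 at 0.42. TM7SF2, at 1.03, was then the only gene at least 2-fold higher. SREBF1 turned to 0.48 and FASN to 0.76. Below 0 were then 3 of the 5 regulators, with a median of -0.42, all 3 transport genes, 3 of 7 mevalonate genes, 7 of 10 sterol enzymes and 4 of 9 fatty acid genes, in all again 20 of 34 (58.8%, against 49.3% of all genes). In the hairpin lines the rho over nuclear protein-coding genes was 0.02 for sh1088 and 0.11 for sh1196 against the sh control.

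The controls differed from each other at these genes. In the pCDH control against the sh control, 1 library each, 12 of 34 lipid genes were at least 2-fold higher (35.3%, against 17.3% of all genes) and 2 at least 2-fold lower (5.88%, against 19%). The median log2 ratio was 0.72, against -0.02 for all genes. Of all 35 genes 15 were highest in the pCDH control (42.9%, against 27.8% of all genes) and 16 were lowest in the sh control (45.7%, against 22.7%).

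The higher genes came from every role. Of the regulators and transport genes, NPC1 stood at 2.22 (95% counting interval 2.03 to 2.42), SCAP at 2.01 (1.74 to 2.30), INSIG1 at 1.97 (1.63 to 2.33) and SREBF2 at 1.15 (0.97 to 1.33). Of the sterol route, MVK stood at 2.44 (1.78 to 3.18), EBP at 1.66 (1.50 to 1.83), DHCR7 at 1.48 (1.34 to 1.61), MVD at 1.31 (0.93 to 1.71) and LSS at 1.14 (0.76 to 1.53). Of the fatty acid genes, FADS2 stood at 1.97 (1.91 to 2.04), FASN at 1.81 (1.68 to 1.93) and ACACA at 1.23 (1.06 to 1.40). Just under the limit was SREBF1 at 0.97 (0.89 to 1.05). The lower genes were INSIG2 at -1.77 (-2.04 to -1.51) and STARD4 at -1.71 (-1.97 to -1.45). On log2(TPM + 1) these stood at 0.91 and 1.70, above 0 but below the median of all genes on that scale, 1.92.

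This ratio also ran with GC content, with a rho of 0.39 over 10056 nuclear protein-coding genes and 0.62 over the 34 lipid genes (Pearson r 0.60). With the trend taken out, 9 genes were at least 2-fold higher (26.5%, against 14.4% of all genes) and 2 lower (5.88%, against 17%), the lower ones again INSIG2 (-1.13) and STARD4 (-1.13). NPC1 stood at 2.31, INSIG1 at 2.13 and MVK at 1.88, while FASN stood at 0.98, SREBF2 at 0.72, LSS at 0.64, MVD at 0.53 and SREBF1 at 0.22. The share of nuclear protein-coding counts was 66.3% in the pCDH control and 37.7% in the sh control. With TMM computed over nuclear protein-coding genes alone the counts were again 12 higher and 2 lower. The 5 immune markers summed to 88.5 CPM in the pCDH control and 21.4 CPM in the sh control, nearly all from 1 gene, with PTPRC and CD3E at 0 throughout. The 5 fibroblast markers summed to 9.59 CPM in the pCDH control and 1.62 CPM in the sh control, with DCN at 0 throughout. The vector, the line and the library differ together between these controls and cannot be told apart. Overexpression and knockdown against the pCDH control share that library with this comparison, as knockdown shares the sh control.

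**Figure D4:**
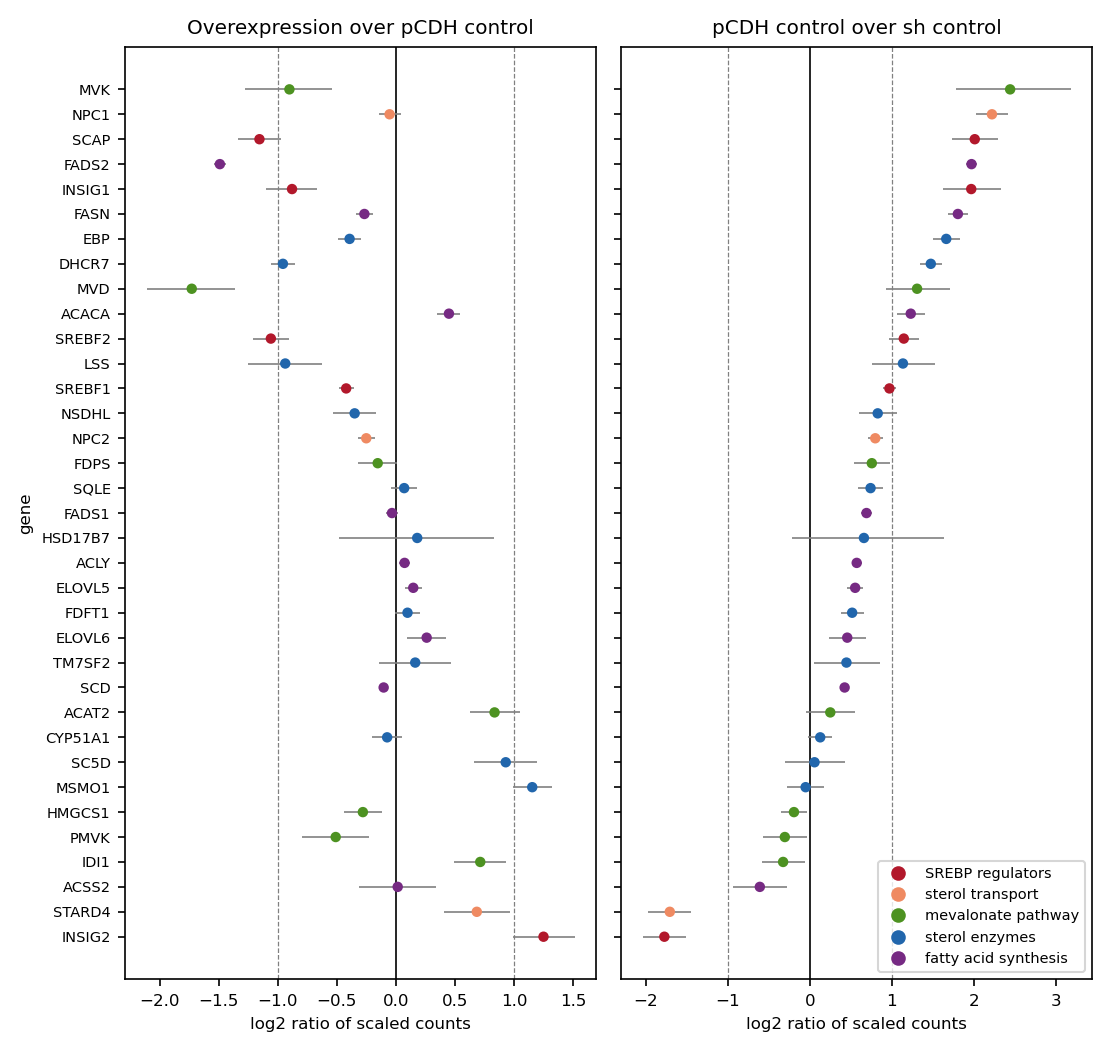
Log2 ratio of scaled counts for each gene, overexpression over the pCDH control on the left and the pCDH control over the sh control on the right, with exact 95% counting intervals. Genes are ordered by the right panel and coloured by role, and dashed lines mark 2-fold. Because both panels use the pCDH control, once below and once above the line, a mirrored order is built in. MVK and NPC1 lead the right panel at 2.44 and 2.22, and HSD17B7 is drawn though its mean is under 5 CPM.

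Between the hairpin lines, sh1196 was at least 2-fold above sh1088 for 4 lipid genes (11.8%, against 6.33% of all genes) and at least 2-fold below for none (0%, against 6.93%), with no test since each is 1 library. These were NPC1 at a log2 ratio of 1.63 (1.49 to 1.77), ACLY at 1.55 (1.47 to 1.64), FASN at 1.38 (1.23 to 1.52) and ACACA at 1.15 (0.97 to 1.33). ACLY, ACACA and FASN make acetyl-CoA, malonyl-CoA and palmitate in turn. The member median was 0.32 against 0.04 for all genes. With the GC trend taken out the counts were again 4 higher (11.8%, against 5.41%) and 0 lower (0%, against 7.48%). RBMS1 was at 13.4 CPM in sh1196 and 18.3 CPM in sh1088, and the nuclear protein-coding share was 66.0% in sh1196 and 42.2% in sh1088. The 5 immune markers summed to 57.1 CPM in sh1196 and 23.1 CPM in sh1088, and their part in these ratios was not tested.

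Other genes of lipid control gave 0 calls in the knockdown in any of 4 lists. Of all genes tested, 54.1% lay above 0 in this fit. Of 10 genes of SREBP processing and turnover, 9 lay above 0 with a median log2 change of 0.19. The hairpin lines differed here. In sh1088 taken alone 3 of the 10 lay above 0 (median -0.06), against 47.9% of all genes. In sh1196 alone 8 did (median 0.37), against 51%. SYVN1, an endoplasmic reticulum ubiquitin ligase, had 134 CPM in sh1088 and 123 CPM in sh1196, against 77.1 CPM in the sh control (log2 change 0.77, SE 0.50, edgeR adjusted p = 0.828). On the side of the liver X receptor and cholesterol efflux, 3 of 6 lay above 0, with NCEH1, a cholesteryl ester hydrolase, at 0.74 (SE 0.50) and MYLIP, a ligase induced by that receptor, at -0.70 (SE 0.65).

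Of 9 genes of the isoprenoid branch 3 lay above 0, and FNTB, a subunit of protein farnesyltransferase, had 20.2 CPM in sh1088 and 11.3 CPM in sh1196, against 38.1 CPM in the sh control (log2 change -1.25, SE 0.49, edgeR adjusted p = 0.828). PDSS1, which makes the side chain of ubiquinone, stood at 0.86 (SE 0.67). Of 23 partner genes of lipid synthesis 14 lay above 0. AGPAT2, an acyltransferase of phosphatidic acid synthesis, had 55.9 CPM in sh1088 and 59.1 CPM in sh1196, against 29.2 CPM in the sh control (log2 change 1.01, SE 0.46, edgeR adjusted p = 0.828), and HACD3, a dehydratase of fatty acid elongation, stood at 0.94 (SE 0.61). In overexpression against the pCDH control AGPAT2 stood at -1.08 and HACD3 at 1.38.

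The authors' deposited table for the knockdown classed 1 of the 35 genes as up (2.86%, against 1.69% of its 15560 genes) and 0 as down (0%, against 1.77%). That gene was NPC1, with a log2 fold change of 1.91, an SE of 0.45 and an adjusted p of 0.00245 in the authors' deposited table. Their log2 values for the 35 genes differed from the edgeR values by -0.0072 to 0.0015. The SE of NPC1 was 0.77 in the edgeR fit. In the authors' deposited table for overexpression, 3 of the 35 were classed up (8.57%, against 13.7% of its 17714 genes) and 7 down (20%, against 11.7%). The up class held INSIG2, MSMO1 and SC5D, and the down class SREBF1, SREBF2, SCAP, MVD, LSS, DHCR7 and FADS2. The count columns of that table hold 1 library a side. How its log2 values and classes were made is not stated in the sources used here. The log2 values of the authors' deposited overexpression table differed from the ratios here by -0.28 to 1.04 over the lipid genes, and NPC1, at 0.98 in the authors' deposited table, stood at -0.06 here.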

How the data were processed

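The 5 libraries were prepared from RNase I-treated lysates after sucrose gradients, per the labels' protocols. Bowtie, STAR 2.4.2, RSEM 1.3.1 and DESeq2 are named in the submitters' processing notes without their roles, and no source used here gives the genome build. The deposited expected counts, TPM and FPKM per gene, with the posterior SD of each count, are RSEM estimates per the file headers. FPKM was not used. The authors' deposited comparison tables hold log2 fold changes, p-values, a test score and a signal (mean normalised count). Their count columns equal those of the libraries.

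Expected counts were rounded to whole numbers. Knockdown and RBMS1-level fits used edgeR 4.0.16 in R 4.3.3 on all genes (filterByExpr, TMM, robust quasi-likelihood, Benjamini-Hochberg over all genes tested, threshold 0.05), with 1 and 2 residual degrees of freedom. Comparisons of 1 library with 1 give a log2 ratio of TMM-scaled counts with an exact conditional 95% interval. GC content, biotypes, overlaps and gene coordinates came from GENCODE 29 (GRCh38), which may differ from the authors' build (58656 of 58929 identifiers matched). The GC trend was a lowess curve (span 0.3).

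The genes and lists were chosen with earlier results of these data known. Named with values in each library were the 5 regulators, genes at least 2-fold apart in a comparison at a mean of at least 5 CPM, and the 3 highest by median TPM. HSD17B7, SCD and FADS1 were added after their values were seen. TPM also served as an alternative scale, log2(TPM + 1). From the other lists, the 2 genes with the largest knockdown change were named. Reads of 11 genes may be shared with an overlapping gene on the same strand. DESeq2 1.42.0, limma 3.58.1, other scalings, filters, controls and left-out libraries were tried as alternatives. Some single genes of the comparison and marker lists are not reported here.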

Additional observations from a re-analysis of the deposited data

How the results depend on the processing

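No paired analysis was possible because the only replicated group has 2 libraries and every other group has 1. Under RLE size factors, with 4 groups over all libraries and with TMM over nuclear protein-coding genes alone (for the overexpression, control and hairpin ratios an alternative chosen after seeing the data), the number of lipid genes above 0 in the knockdown was again 22, and in the comparisons of 1 library with 1 the numbers at least 2-fold higher and lower were as given. SCAP, 1.00 in the knockdown, stood at 0.97 in each of these 3 settings, so that 2-fold was not reached there, and limma-voom put SCAP at 0.96 and EBP at 0.98. No lipid gene was called in the knockdown or level fits under any alternative run. The number of all genes called in the knockdown was 27 by library size scaling, 102 with no filter, 14 by DESeq2, 93 with the pCDH control, 3 on log2(TPM + 1) and 4 over nuclear protein-coding genes, against 0. In the level fit it was 36 by library size, 89 with no filter, 56 by DESeq2 and 0 by limma-voom, against 1, and 30 to 136 when a hairpin line was left out. The causes of these changes were not tested.

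Other scalings changed counts of lipid genes. The all-gene median was 0.62 by library size and 0.78 by TPM in the knockdown, 0.23 there with no filter, -0.37 per level by library size, 0.83 by library size and 1.92 by TPM in the pCDH control against the sh control, 0.65 and 0.74 between the hairpin lines, and -0.72 by TPM in overexpression, where it was -0.07 by library size and 0.06 by TMM. Lipid genes above 0 in the knockdown numbered 35 by library size and 35 by TPM, against 22, and 2 per RBMS1 level by library size, against 12. In overexpression 8 were at least 2-fold lower by library size and 12 by TPM, and 0 higher by TPM. In the pCDH control against the sh control 25 were higher by library size and 33 by TPM, with 0 lower by either. INSIG2 then stood at 0.91 and STARD4 at 1.70 by TPM, above 0 but below the all-gene median. Between the hairpin lines 16 were higher by library size and 20 by TPM. The shares of all genes passing the same limits on these scales were not counted. These numbers are therefore not set apart from the shift of all genes and are not read as a result about the lipid genes. By library size the summed level of the 35 genes was 2229 CPM in sh1088, 4767 in sh1196, 2202 in the sh control, 5336 in the overexpression library and 7129 in the pCDH control.

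The member median minus the all-gene median was 0.31 in the knockdown, 0.05 to 0.55 when a hairpin line was left out (0.05 without sh1196), 0.17 with no filter, 0.62 by TPM and -0.31 with the pCDH control, where 11 genes lay above 0. With either hairpin line left out 18 to 24 lay above 0, and NPC1 stood at 0.85 without sh1196. With the pCDH control SCAP stood at -1.03, NPC1 at -0.32 and EBP at -0.62. In overexpression the same difference was -0.15, -0.053 by TPM and 0.55 with the sh control, where SREBF2 stood at 0.087, SCAP at 0.86, INSIG2 at -0.53 and FADS2 at 0.48, with 7 genes higher and 1 lower. With the GC trend taken out, 1 gene was higher and 2 were lower, and for the pCDH control against the sh control the difference was 0.61, against 0.74. Between the hairpin lines it was 0.28, and 0.45 by TPM. Per RBMS1 level it was -0.23, and -0.35 to -0.071 when a hairpin line was left out. For genes near 5 CPM, such as MVK and HSD17B7, counting error limits the ratios.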
